A study of Mus musculus with 22 samples.

Results

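The Hox cluster genes encode homeodomain transcription factors and lie in 4 clusters, and 38 of them were analysed among 21851 protein-coding genes of the mouse. They are the members of this gene family by name. There were 10 members in the Hoxa cluster (chr6:52162417-52260880), 10 in Hoxb (chr11:96194316-96368256), 9 in Hoxc (chr15:102921103-103036852) and 9 in Hoxd (chr2:74668310-74765142), all on GRCm38, where each span runs over the members analysed. For each member the promoter was taken as 2000 bp on each side of 1 principal transcription start in the GENCODE annotation.

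Hox genes set the identity of body segments along the head-to-tail axis. Within a cluster the genes stand in the order in which they are used along that axis, from anterior members with low numbers to posterior members with high numbers, and members with the same number in different clusters are called paralogues. Active clusters form long open domains over anterior genes, and silent parts are held by polycomb group proteins. Adipose depots are known to keep depot-specific patterns of Hox use, as part of their positional memory.

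The study asked whether adipocytes keep a chromatin record of obesity after weight loss. ATAC-seq, in which a transposase cuts open chromatin, was run on nuclei from epididymal fat of male mice, 22 libraries in 8 groups, each library a separate animal by the labels (AdipoERCre x NuTRAP on a C576BL6 background, as the labels spell it). In these mice a tamoxifen-inducible Cre under the adiponectin promoter tags the nuclei of adipocytes, so other cells enter only as carry-over. All groups, controls included, carried both alleles and had received tamoxifen, per the study's methods. Controls ate a low-fat chow, and during the last weeks of the weight loss arms CC_s and CCC were given the same standard chow as HC and HHC. C (n = 3) were 18 weeks old on chow and H (n = 3) were of the same age after 12 weeks of high-fat diet (HFD). CC_s (n = 3) and HC (n = 3) were 26 weeks old, HC with 8 weeks of chow after 12 weeks of HFD. CC_l (n = 2) and HH (n = 3) were 31 weeks old, HH with 25 weeks of HFD. CCC (n = 2) and HHC (n = 3) were 39 weeks old, HHC with 8 weeks of chow after 25 weeks of HFD. H and HH are called obese, HC and HHC weight loss. The 12-week and 25-week arms are also separate sets of libraries, so duration and set cannot be told apart.

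The libraries held between 40528 and 60523 peaks that covered 128.1 to 299.5 Mb. Depth is unknown, since peak lists give no read counts. All 10 adipocyte markers, Adipoq, Plin1 and Lep among them, had a promoter peak in every library. Of the other lists, 2 to 7 of 10 macrophage, 1 to 9 of 10 endothelial, 0 to 6 of 7 mesothelial, 4 to 7 of 8 progenitor and 0 to 3 of 8 epithelial markers had one. HC 3 and HHC 3 had the lowest peaks relative to the floor of their lists, with the median peak 2.43 and 2.25 times as high as the lowest peak of the library, where the next library, CCC 2, had 3.67. HC 3, HH 1 and HHC 3 covered the least, at 128.1, 132.1 and 139.7 Mb, and CC_s 2 the most. Because neighbouring Hox promoters often share 1 long peak, members are not independent of each other. In such tagged but bulk nuclei, fewer nuclei with an open site and less opening per nucleus cannot be told apart.

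The promoters of 5 members are printed because the results turn on them: Hoxa6 is the member whose signal was lower in every high-fat library than in its age-matched controls in all 4 pairs, Hoxa9 is the member called in H against C, Hoxb4 and Hoxd10 had the highest mean promoter signal of their clusters, and Hoxd13 is the posterior end that had no peak in any library. Each is 300 bases on GRCm38.p6 from RefSeq, 5′ to 3′ on the strand of the gene, and capitals mark matches, read on either strand, of TATAAA (overlapping ones joined) and of the CCAAT box.
Hoxa6 (chr6:52208623-52208922, minus strand): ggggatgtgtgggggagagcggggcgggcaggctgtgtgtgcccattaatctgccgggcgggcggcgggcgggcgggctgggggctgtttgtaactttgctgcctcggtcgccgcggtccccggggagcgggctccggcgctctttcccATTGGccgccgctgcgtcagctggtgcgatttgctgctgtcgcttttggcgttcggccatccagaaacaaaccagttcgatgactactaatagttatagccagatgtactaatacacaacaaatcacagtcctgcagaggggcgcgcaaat
Hoxa9 (chr6:52227321-52227620, minus strand): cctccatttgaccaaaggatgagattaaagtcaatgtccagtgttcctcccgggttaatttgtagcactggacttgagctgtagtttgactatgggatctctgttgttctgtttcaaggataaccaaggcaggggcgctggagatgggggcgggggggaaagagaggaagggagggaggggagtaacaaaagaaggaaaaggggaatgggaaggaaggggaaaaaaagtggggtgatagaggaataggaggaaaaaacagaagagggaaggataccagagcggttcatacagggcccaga
Hoxb4 (chr11:96318017-96318316, plus strand): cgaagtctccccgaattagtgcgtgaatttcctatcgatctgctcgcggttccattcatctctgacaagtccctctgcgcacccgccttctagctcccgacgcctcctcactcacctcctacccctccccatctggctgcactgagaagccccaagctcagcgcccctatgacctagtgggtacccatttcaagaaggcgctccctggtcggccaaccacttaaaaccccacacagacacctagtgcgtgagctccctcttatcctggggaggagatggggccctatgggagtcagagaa
Hoxd10 (chr2:74691641-74691940, plus strand): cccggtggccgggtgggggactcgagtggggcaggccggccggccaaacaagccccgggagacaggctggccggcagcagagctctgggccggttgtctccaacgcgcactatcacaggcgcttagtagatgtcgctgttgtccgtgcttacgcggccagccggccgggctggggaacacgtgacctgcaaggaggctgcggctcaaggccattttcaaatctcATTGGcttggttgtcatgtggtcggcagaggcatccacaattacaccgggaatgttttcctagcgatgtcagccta
Hoxd13 (chr2:74667975-74668274, plus strand): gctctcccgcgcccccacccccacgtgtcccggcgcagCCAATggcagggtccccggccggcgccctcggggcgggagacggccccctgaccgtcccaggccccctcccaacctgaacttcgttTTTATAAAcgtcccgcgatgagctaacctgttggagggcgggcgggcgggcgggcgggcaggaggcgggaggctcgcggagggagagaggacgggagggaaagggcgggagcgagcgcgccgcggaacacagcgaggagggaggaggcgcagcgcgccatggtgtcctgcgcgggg

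The 300 bases of Hoxa6 lay wholly inside a peak in 3 of 3 C and 2 of 2 CC_l libraries, against 1 of 3 H and 0 of 3 HH. After weight loss they did so in 0 of 3 HC and 1 of 3 HHC libraries, against 3 of 3 CC_s and 2 of 2 CCC. For Hoxd10 these bases lay inside a peak in 20 libraries, and for Hoxd13 in 0. TATAAA, on either strand, stood in 4 of 24 promoters of the 22 members with a RefSeq entry, and in 13.6% of all 32851 promoters of that length. CCAAT stood in 15 of 24 against 37.4%, and TGATTNAT, a letter pattern close to known HOX-PBX sites, in 2 of 24 against 3.2%. The median ratio of observed to expected CpG was 0.63 in the Hox promoters and 0.38 in all promoters, and the median GC content 57.6% against 52.7%. These matches are descriptions of letters, not sites.

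The clusters also hold microRNA genes, which repress Hox and other transcripts. Their mature sequences are shown with the seed, bases 2 to 8, in capitals, because genes with one seed lie in different clusters. A seed was shared by miR-10a-5p and miR-10b-5p, and another by miR-196a-5p and miR-196b-5p.
miR-10a-5p: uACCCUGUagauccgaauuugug
miR-10b-5p: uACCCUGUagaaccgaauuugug
miR-196a-5p: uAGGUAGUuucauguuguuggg
miR-196b-5p: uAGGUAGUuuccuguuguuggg
miR-615-3p: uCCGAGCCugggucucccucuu
Mir10a in Hoxb and Mir615 in Hoxc had a peak at the start in 22 libraries, and Mir10b in Hoxd in 21. The miR-196 genes lie further toward the posterior ends and had a peak in 12 (Mir196b), 7 (Mir196a-2) and 2 (Mir196a-1) libraries. Mir196b, next to Hoxa9, had one in 3 of 3 C and 0 of 3 H libraries, and in 1 of 3 HC against 2 of 3 CC_s. In the 25-week arm it had one in 1 of 3 HH against 1 of 2 CC_l, and in 2 of 3 HHC against 2 of 2 CCC. Of the long noncoding genes, Hotairm1 at the anterior end of Hoxa had a peak in 22 libraries, Hottip at its posterior end in 9, and Hotair in Hoxc in 0.

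The members open in every library were Hoxa, Hoxb and Hoxc genes of low or middle number, and the posterior ends of Hoxc and Hoxd were closed in most. The order along a cluster did not hold for each member, since the anterior Hoxb1 and Hoxd1 had a promoter peak in 0 and 5 of 22 libraries and the posterior Hoxc10 and Hoxd10 in 21. A peak, with an overlap of at least 1 bp, was present in all 22 libraries at 9 members (Hoxa3, Hoxa4, Hoxa5, Hoxb4, Hoxb5, Hoxc4, Hoxc5, Hoxc6 and Hoxc8), or 23.7% of them, against 41.3% of all coding genes and 6.0% of 50 other developmental homeobox genes. A further 13 members had one in 15 to 21 libraries (Hoxa2, Hoxa6, Hoxa7, Hoxa9, Hoxb2, Hoxb3, Hoxb6, Hoxb7, Hoxc9, Hoxc10, Hoxd3, Hoxd4 and Hoxd10). Hoxa10, Hoxa11, Hoxa13, Hoxb8, Hoxb13, Hoxd1, Hoxd8 and Hoxd9 had one in 5 to 14 libraries, and Hoxb9, Hoxc11, Hoxc13, Hoxd11 and Hoxd12 in 1 to 4. Hoxb1, Hoxc12 and Hoxd13 had none in any library. The 11.7 kb between the windows of Hoxc13 and Hoxc12 were not covered in any library. The start taken for Hoxd4 lies 5096 bp from its RefSeq start, and its window also holds the start of Mir10b. The 300 RefSeq bases of Hoxd4 lay inside a peak in 1 library. For Hoxd3 the start taken lies 24522 bp from the RefSeq start, whose 300 bases lay inside a peak in 16 libraries. Values of both members refer to the starts taken.

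**Figure D1:**
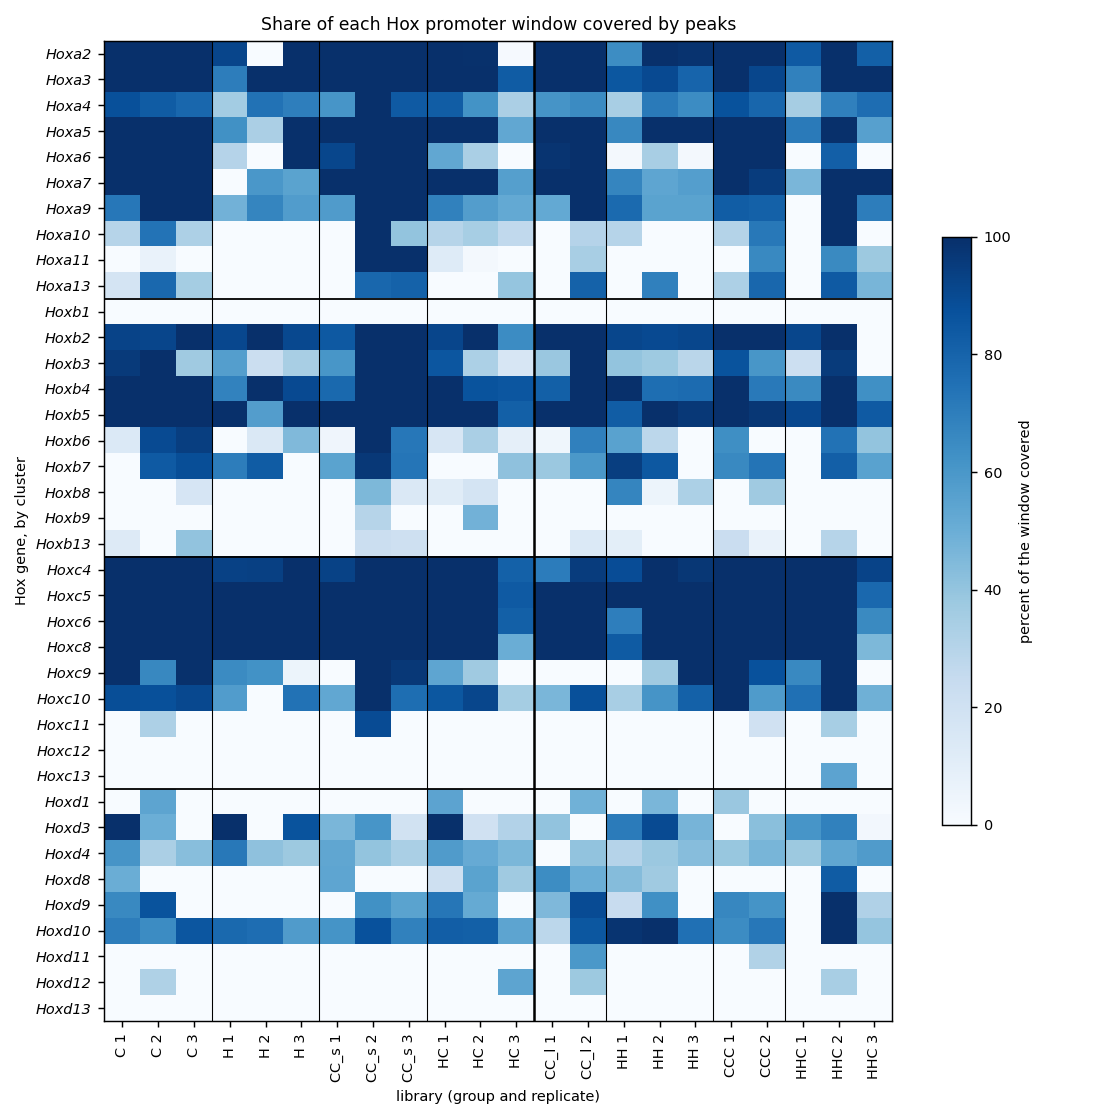
Percent of each promoter window (2000 bp on each side of the start) covered by peaks, for the 38 Hox genes (vertical axis, by cluster) in the 22 libraries (horizontal axis, by group). Hoxc4, Hoxc5, Hoxc6 and Hoxc8 have a peak in every library, and HC 3 and HHC 3 are lower than the other libraries of their groups at all 4, down to 50.3% and 45.6% at Hoxc8. Hoxb1, Hoxc12 and Hoxd13 are at 0, and Hoxa6 is pale in HH and in most H, HC and HHC libraries.

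Signal was compared on a rank-mapped log2 scale, in which every library's promoter values were replaced, rank by rank, by the same set of values. The 11799 highest promoters of a library were ranked, and lower or closed ones stand at a floor of 13.53, so a promoter can have a weak peak and stand at the floor. On this scale the highest mean in each cluster was Hoxa3 (15.84), a paralogue of group 3 whose annotated start lies between Hoxa6 and Hoxa7, Hoxb4 (15.62), Hoxc5 (16.27) and Hoxd10 (14.49). Hoxa3 read 15.79, 15.98 and 16.07 in C, 15.58, 15.29 and 15.46 in H, 15.85, 15.91 and 16.42 in CC_s, and 15.40, 15.74 and 16.28 in HC. It read 16.06 and 16.13 in CC_l, 15.94, 15.56 and 15.56 in HH, 16.02 and 16.27 in CCC, and 15.15, 15.65 and 16.28 in HHC. Its H and C libraries did not overlap, nor did HH and CC_l, while the weight loss groups overlapped their controls. Hoxc5 shared its peak with Hoxc6 in all 22 libraries.

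Hoxc5 read 16.09, 16.17 and 16.28 in C, 16.14, 16.21 and 16.22 in H, 16.13, 16.63 and 16.57 in CC_s, and 16.44, 16.05 and 16.48 in HC. It read 16.17 and 16.18 in CC_l, 16.19, 16.38 and 16.41 in HH, 16.15 and 16.53 in CCC, and 16.24, 16.18 and 16.07 in HHC. Only HH and CC_l did not overlap, with a log2 difference of 0.15 (SE 0.16, limma adjusted p = 0.894). Hoxb4 read 15.26, 15.37 and 15.44 in C, and 15.25, 15.36 and 15.71 in H. It read 15.73, 16.15 and 15.50 in CC_s, 15.61, 15.77 and 16.30 in HC, 15.37 and 15.79 in CC_l, and 16.14, 15.45 and 15.42 in HH. In CCC it read 15.53 and 15.47, and in HHC 15.44, 15.76 and 15.81. The high-fat groups of Hoxb4 overlapped their controls in all 4 pairs. Hoxd10 read 14.50, 13.81 and 14.20 in C and 14.76, 14.50 and 14.22 in H, which overlapped. It read 13.53 and 14.70 in CC_l and 15.60, 14.85 and 14.82 in HH, and 14.32 and 14.94 in CCC and 13.53, 15.13 and 14.80 in HHC. Of these pairs only HH stood wholly above its control, by a log2 difference of 0.98 (SE 0.42, limma adjusted p = 0.726).

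The Hoxa cluster as a whole was less covered by peaks in the obese groups. Peaks covered 68.2%, 82.3% and 74.2% of it in C, and 25.8%, 20.1% and 42.0% in H. In the 25-week arm they covered 51.9% and 73.0% in CC_l, and 32.7%, 39.3% and 27.4% in HH. The obese libraries were all below their controls in both arms, by 45.6 percentage points on average at 12 weeks and 29.3 at 25 weeks. Pooled within arms, the difference was -37.4 percentage points (exact permutation test, two-sided, p = 0.005, the smallest that 200 relabellings can give, adjusted p = 0.04 over 8 tests of 4 clusters and 2 contrasts). Beside this, 1 to 5 of 7 mesothelial markers had a promoter peak in C and 0 to 1 in H, and 3 in both CC_l libraries and 0 to 2 in HH. Of the 10 adipocyte markers, all open in every library, 9 had a higher promoter signal in H than in C, with a median log2 difference of 0.29, and 6 were higher and 4 lower in HH than in CC_l, with a median of 0.01. Endothelial markers with a peak numbered 1 to 2 of 10 in C and 1 to 3 in H, and 1 in both CC_l libraries and 1 to 9 in HH. The 1 endothelial promoter tested in H against C, Esam, read higher in H by 1.10 (SE 0.23, limma adjusted p = 0.0768), without overlap, and is named after its value was seen. The part of these markers in the Hoxa difference was not tested.

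After weight loss the values of Hoxa scattered more. Peaks covered 52.8%, 97.6% and 86.4% in CC_s, and 63.6%, 48.2% and 26.2% in HC. They covered 67.6% and 77.8% in CCC, and 19.8%, 75.5% and 31.6% in HHC. HC 1 lay above CC_s 1, and HHC 2 above CCC 1, so neither pair separated. The pooled difference was -31.7 percentage points (exact permutation p = 0.05, adjusted p = 0.1). Without HC 3, HHC 3 and CC_s 2, libraries of these pairs with low peaks or the widest coverage, it was -19.4 (exact permutation p = 0.3333, 36 relabellings), a choice made after seeing the data.

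The share of each library's summed peak signal that lay in Hoxa, given in ppm, separated the groups of each pair. It was 269 to 361 ppm in C and 66.6 to 158 in H, 249 to 405 in CC_s and 138 to 200 in HC, 264 to 330 in CC_l and 117 to 165 in HH, and 324 to 367 in CCC and 82.0 to 243 in HHC. The groups did not overlap in any of the 4 pairs. The pooled difference was -183 ppm for the obese groups (exact permutation p = 0.005, adjusted p = 0.04) and -171 after weight loss (exact permutation p = 0.01, adjusted p = 0.04). Without HC 3, HHC 3 and CC_s 2 the latter was -143 (exact permutation p = 0.0556, the smallest that 36 relabellings can give). With only the strongest peaks of each library, up to 100 Mb, the differences of the covered share were -32.2 points (exact permutation p = 0.005, adjusted p = 0.04) and -32.0 (p = 0.015, adjusted p = 0.06). A single pair of 3 and 3 or of 3 and 2 libraries cannot go below an exact permutation p of 0.1.

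**Figure D2:**
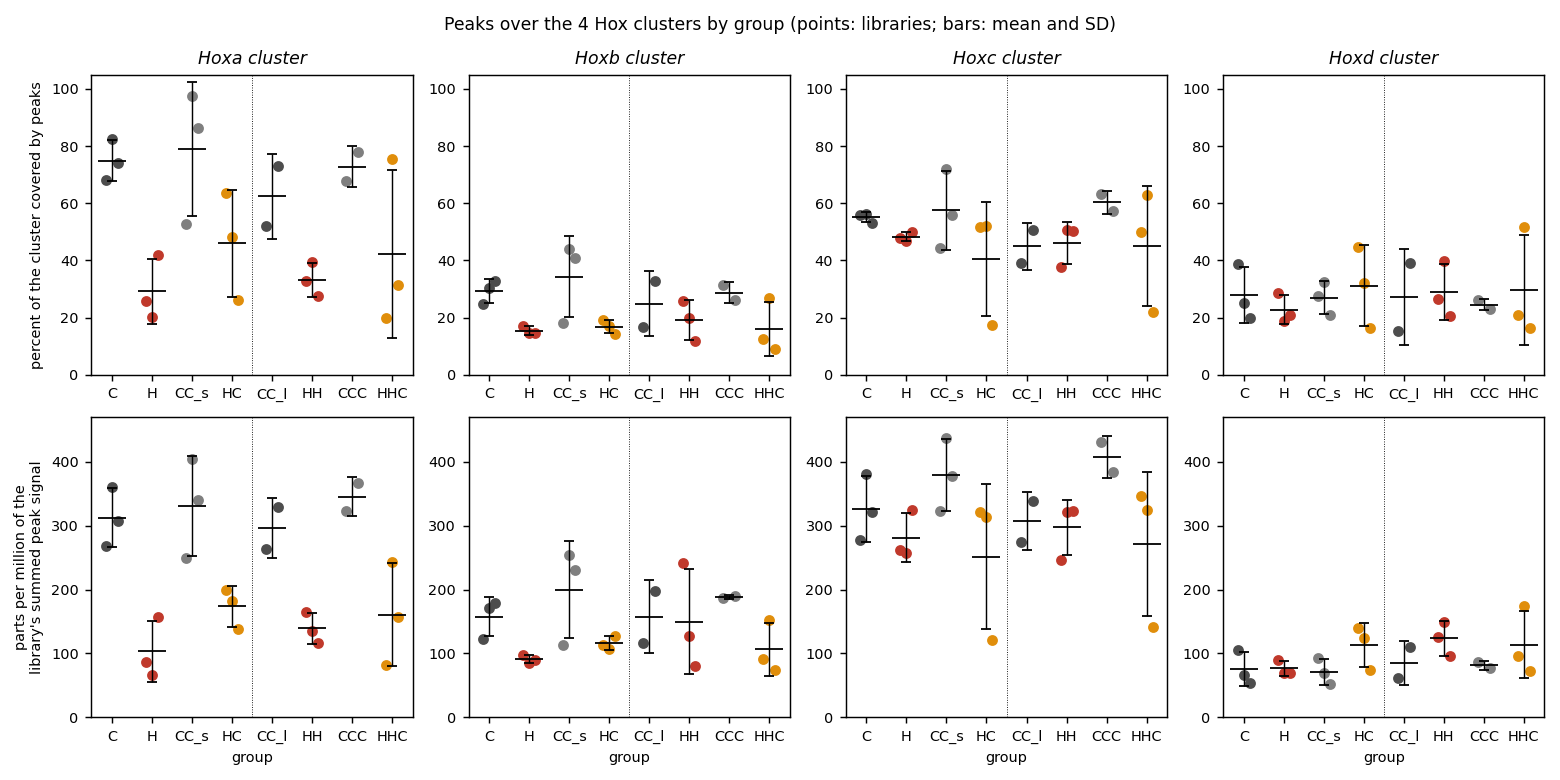
Share of each Hox cluster covered by peaks (upper row, percent) and share of the library's summed peak signal in the cluster (lower row, ppm) for the 8 groups; points are libraries, bars mean and SD, and the dotted line parts the 12-week from the 25-week arm. In the Hoxa signal panel the high-fat groups lie below their controls in each pair, at 66.6 to 243 against 249 to 405.

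In the other clusters no pooled covered share passed the adjusted threshold, while H and C did not overlap in Hoxb and Hoxc. Hoxb was covered by 24.6% to 32.8% in C and 14.5% to 17.2% in H, and by 16.7% and 32.9% in CC_l against 11.9% to 25.6% in HH. Its pooled differences were -9.73 points in obesity (exact permutation p = 0.045) and -15.0 after weight loss (exact permutation p = 0.04), both with an adjusted p of 0.1. The obese value rested on single libraries, since it was -5.70 without CC_l 2 (exact permutation p = 0.25) and -13.8 without CC_l 1 (exact permutation p = 0.025). The longest peak of Hoxb was 12.5 to 16.1 kb in C and 5.16 to 8.24 kb in H. It was 6.23 and 19.3 kb in CC_l and 5.48 to 6.72 kb in HH, which overlapped. Over both arms it was shorter in obesity by a pooled difference of -7.29 kb (exact permutation p = 0.01, adjusted p = 0.04). The signal share of Hoxb differed by -37.3 ppm in obesity (exact permutation p = 0.29) and by -82.9 ppm after weight loss (exact permutation p = 0.035, adjusted p = 0.07).

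Hoxc differed in covered share by -2.84 points in obesity (exact permutation p = 0.395) and -16.2 after weight loss (exact permutation p = 0.16). The first averages -6.89 at 12 weeks, where H (46.8% to 49.9%) lay wholly below C (53.1% to 56.3%), and 1.21 at 25 weeks. The second was -10.4 without HC 3 (exact permutation p = 0.32), -10.4 without HHC 3 (exact permutation p = 0.2167) and -1.04 without HC 3, HHC 3 and CC_s 2 (exact permutation p = 0.8889). In HC 3 and HHC 3 peaks covered 17.4% and 22.1% of Hoxc, against 44.4% to 72.1% in the other libraries of these pairs. The signal share of Hoxc did not overlap in either weight loss pair, at 120 to 322 ppm in HC against 324 to 437 in CC_s and 142 to 346 in HHC against 384 to 431 in CCC. Its pooled difference was -132 ppm (exact permutation p = 0.02, adjusted p = 0.0533), and -52.9 ppm without HC 3, HHC 3 and CC_s 2 (exact permutation p = 0.0556, the smallest that 36 relabellings can give).

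For Hoxd no difference passed the adjusted threshold. Its pooled differences were -1.79 points in obesity (exact permutation p = 0.775) and 4.62 after weight loss (exact permutation p = 0.615). Among the strongest 100 Mb they were 6.49 (exact permutation p = 0.045) and 8.92 (exact permutation p = 0.035), both with an adjusted p of 0.09. The sign in obesity thus turned with the peaks used.

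Within each library the covered share of Hoxa was set against that of each other cluster, a comparison chosen after seeing the data. In obesity Hoxa minus Hoxb was lower by 27.7 points, Hoxa minus Hoxc by 34.6 and Hoxa minus Hoxd by 35.7 (each exact permutation p = 0.005, adjusted p = 0.0075 over 6 tests). After weight loss Hoxa minus Hoxd was lower by 36.3 points (exact permutation p = 0.005, adjusted p = 0.0075). The differences against Hoxb and Hoxc were -16.7 and -15.5 (exact permutation p = 0.11 and 0.115). On the signal share the weight loss differences were -88.2 ppm against Hoxb (exact permutation p = 0.005, adjusted p = 0.0075), -38.8 ppm against Hoxc (exact permutation p = 0.56) and -208 ppm against Hoxd (exact permutation p = 0.005, adjusted p = 0.0075). In obesity they were -146, -156 and -203 ppm (exact permutation p = 0.005, 0.01 and 0.005). After weight loss a difference between Hoxa and Hoxc was thus not shown on either measure. Points and ppm are not relative to the level in the controls, which for the signal share averaged 331 and 345 ppm in CC_s and CCC for Hoxa and 199.8 and 189 for Hoxb. As ratios of group means, the signal share was 0.52 in HC against CC_s and 0.47 in HHC against CCC for Hoxa, and 0.58 and 0.56 for Hoxb. The ratios of the covered share were 0.58 and 0.58 for Hoxa and 0.49 and 0.56 for Hoxb. In obesity the ratios of the covered share were 0.39 in H against C and 0.53 in HH against CC_l for Hoxa. They were 0.53 and 0.77 for Hoxb, 0.87 and 1.03 for Hoxc, and 0.81 and 1.06 for Hoxd. That Hoxa differed more than another cluster in proportion was not tested, in obesity or after weight loss.

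Along Hoxa the peaks were long in C and short in H. In C the longest peak of the cluster was 32.6 to 34.4 kb long and in H 4.08 to 16.2 kb. It was 15.1 and 27.7 kb in CC_l and 3.88 to 7.99 kb in HH, and the pooled difference was -20.7 kb (exact permutation p = 0.005, adjusted p = 0.04). After weight loss the difference was -20.9 kb (exact permutation p = 0.04, adjusted p = 0.1067).

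The 31.5 kb beyond the Hoxa9 window (chr6:52229371-52260880), which hold Hoxa10, Hoxa11 and Hoxa13, genes of limb and genital tract patterning, were covered by 28.6%, 62.1% and 44.5% in C. In all 3 H libraries they held no peak, a covered share of 0. They were covered by 4.8% and 47.6% in CC_l and 8.9%, 9.7% and 0 in HH, so HH overlapped its control. In CC_s the values were 11.6%, 97.7% and 79.2%, and in HC 37.9%, 19.8% and 13.0%. In CCC they were 30.2% and 67.0%, and in HHC 0, 78.6% and 12.1%. The peaks of C were weak at these promoters. Mean promoter signal in C was 13.66 at Hoxa10, 13.53 at Hoxa11 and 13.78 at Hoxa13, against the floor of 13.53. The highest signal in these windows averaged 28.7, 4.7 and 26.0 in C, where the median peak of its libraries reached 73.0 to 107.

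At the anterior end, the 22.9 kb between the windows of Hoxa2 and Hoxa4, which include the body of Hoxa3, were covered by 76.7% to 83.1% in C and 13.1% to 37.1% in H. They were covered by 55.3% and 72.4% in CC_l and 10.8% to 27.4% in HH, and by 67.8% and 72.7% in CCC and 8.8% to 41.1% in HHC. Only HC overlapped its control, at 19.7% to 56.3% against 46.1% to 92.9% in CC_s. This stretch was chosen after its values were seen. The joined promoter windows of Hoxa were covered by 74.4% to 83.8% in C and 35.2% to 61.3% in H, and the 60.5 kb between them by 64.2% to 81.3% and 10.5% to 29.8%. Neither overlapped in HH against CC_l, at 44.8% to 55.4% against 64.4% and 80.1% in the windows and 14.5% to 29.2% against 44.0% and 68.5% between them. Both overlapped after weight loss. The windows were covered by 32.1% to 68.0% in HC against 64.2% to 98.1% in CC_s, and by 32.0% to 89.9% in HHC against 77.2% and 86.0% in CCC. The stretches between were covered by 22.5% to 60.8% against 45.6% to 97.3%, and by 12.1% to 66.5% against 61.7% and 72.6%.

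**Figure D3:**
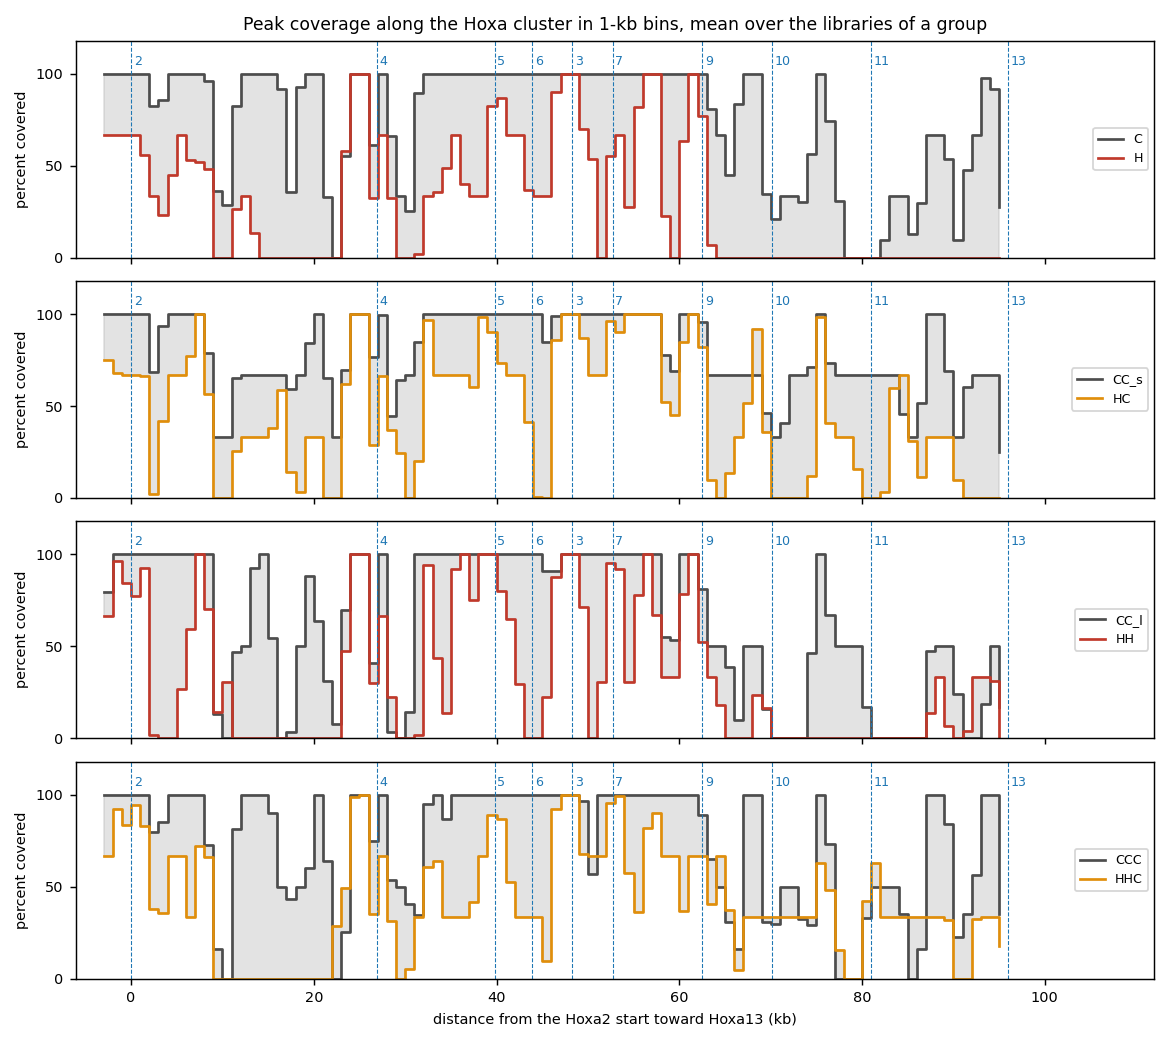
Percent of each 1-kb bin covered by peaks along the Hoxa cluster (horizontal axis, kb from the Hoxa2 start toward Hoxa13), as the mean over the libraries of a group, in 4 panels for the 4 age-matched pairs; dashed lines mark the starts of the members by number. Grey areas show the gap between the control and the high-fat line, and the H line lies at 0 from just beyond Hoxa9 onward.

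Hoxa6, a middle member that with its paralogues patterns the thoracic region, read lower in every high-fat library than in its controls in all 4 pairs. This pattern was first seen in the data, and the share of all promoters that have it was not counted. In each pair the control libraries alone sufficed for Hoxa6 to be tested. Its coverage is given first, since several of its high-fat libraries stand at the floor of the signal scale. Its promoter window was covered by 100.0% in each C library and by 30.4%, 0 and 100.0% in H, and by 98.3% and 100.0% in CC_l and 2.1%, 34.0% and 1.6% in HH. In CC_s the share was 91.3%, 100.0% and 100.0%, and in HC 53.1%, 33.8% and 0. In both CCC libraries it was 100.0%, and in HHC 0, 82.0% and 0. H 3 was as covered as its controls, and HHC 2 nearly so.

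**Figure D4:**
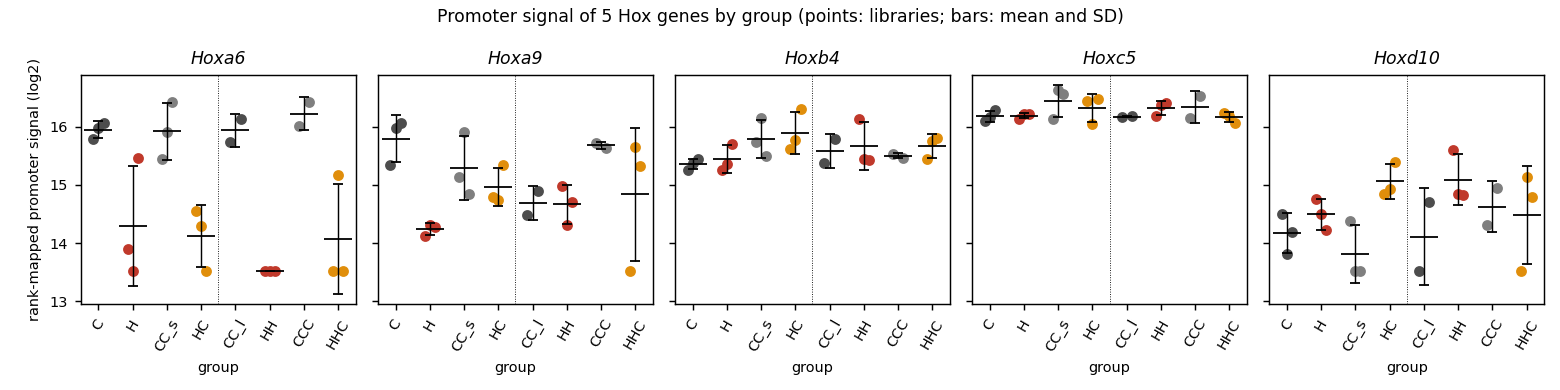
Rank-mapped promoter signal (log2) of Hoxa6, Hoxa9, Hoxb4, Hoxc5 and Hoxd10 by group; points are libraries and bars mean and SD, and 13.53 is the floor. Hoxa6 is below the control in each high-fat group, while Hoxc5 stays between 16.05 and 16.63 in all libraries.

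In the comparison of H with C, 22 members had a signal above the floor in at least 3 libraries and could be tested, among 12032 promoters. This filter admits members through the group in which they are high, so the counts describe the tested members only. A promoter was called where its adjusted p was below 0.05 and its log2 difference exceeded 1 in size. By that rule 1 member was called, where 0.449% of all promoters were. It was Hoxa9, a posterior-group member known from leukaemia and axial patterning. Hoxa9 read 15.34, 15.98 and 16.07 in C and 14.13, 14.32 and 14.27 in H. The groups did not overlap, and the log2 difference was -1.56 (SE 0.23, limma adjusted p = 0.0322). In C 2 and C 3 its window lay within the same long peak as Hoxa6. The call was lost without H 1, C 2, H 2, C 3 or H 3 (limma adjusted p from 0.0682 to 0.181), with log2 differences of -1.60 to -1.42.

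At an unadjusted p under 0.01 and the same difference, 4 members were lower in H and 0 higher, beside 2.73% of all promoters in either direction. After Hoxa9 came Hoxa7 (log2 difference -1.65, SE 0.32, limma adjusted p = 0.0687), Hoxa5 (-1.01, SE 0.26, limma adjusted p = 0.111) and Hoxa6 (-1.65, SE 0.44, limma adjusted p = 0.12). Hoxa7 read 15.79, 15.98 and 16.07 in C and 13.53, 14.51 and 14.84 in H. Hoxa5, which is known from lung development, read the same as Hoxa7 in C, from the same peak, and 14.92, 14.41 and 15.46 in H. Libraries did not overlap for 7 members lower in H, which were all the tested Hoxa members, and 12.0% of all promoters were so. They did not overlap for 1 member higher in H, Hoxd4 (log2 difference 0.64, SE 0.30, limma adjusted p = 0.311), where the background was 12.8%. The Hoxd4 window also holds the start of Mir10b. The median difference of the tested members was -0.25, against 0.004 over all promoters.

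In HH against CC_l, 24 members were tested among 12377 promoters and 0 were called (smallest limma adjusted p = 0.128, with 6 members at an unadjusted p under 0.05). Of all promoters 0.00% were called and 6.83% had an unadjusted p under 0.05. Hoxa6 read 15.74 and 16.13 in CC_l and stood at the floor of 13.53 in all 3 HH libraries, a log2 difference of -2.40 (SE 0.31, limma adjusted p = 0.128). It passed the filter only through CC_l, and its difference, SE and p all depend on the floor. Hoxd3, an anterior Hoxd member that patterns the upper neck vertebrae, read 13.82 and 13.53 in CC_l and 15.31, 14.77 and 14.59 in HH. Its log2 difference was 1.21 (SE 0.36, limma adjusted p = 0.617), which depends on the floor, where CC_l 2 stood, and it entered the test through HH. These were the 2 members at the unadjusted threshold, 1 in each direction, beside 0.978% of all promoters. Hoxa7 followed with 16.06 and 16.13 in CC_l and 15.74, 14.41 and 14.56 in HH (log2 difference -1.19, SE 0.38, limma adjusted p = 0.655). Libraries did not overlap for 5 members lower (Hoxa3 to Hoxa7, background 12.0%) and 5 higher in HH (Hoxb2, Hoxb5, Hoxc5, Hoxd3 and Hoxd10, background 11.1%). The median over the members was -0.05, against -0.015 over all promoters.

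In HC against CC_s, after weight loss, 23 members were tested among 11999 promoters and 0 were called (smallest limma adjusted p = 0.386, with 6 at an unadjusted p under 0.05). Of all promoters 0.00% were called and 6.45% had an unadjusted p under 0.05. Hoxa6 read 15.44, 15.91 and 16.42 in CC_s and 14.56, 14.29 and 13.53 in HC, without overlap, a log2 difference of -1.80 (SE 0.36, limma adjusted p = 0.386). Hoxd10, a posterior member involved in motor neuron and hindlimb patterning, read 14.38, 13.53 and 13.53 in CC_s and 14.85, 14.93 and 15.40 in HC, a log2 difference of 1.25 (SE 0.38, limma adjusted p = 0.719). With 2 of 3 CC_s libraries at the floor it entered the test through HC, and these values depend on the floor. Its window was covered to a like extent in both groups, at 61.7% to 87.2% and 54.2% to 82.2%. These 2 were the members at the unadjusted threshold, beside 0.800% of all promoters. Hoxa2, a hindbrain patterning gene, read 16.17, 16.19 and 16.26 in CC_s and 15.88, 15.16 and 13.53 in HC, where the lowest is HC 3 (log2 difference -1.35, SE 0.48, limma adjusted p = 0.755). Without HC 3 the difference was -0.69 (limma adjusted p = 0.834). Libraries did not overlap for 3 members lower (Hoxa2, Hoxa6 and Hoxa7, background 6.24%) and 3 higher in HC (Hoxb5, Hoxd4 and Hoxd10, background 5.48%). The median over the members was -0.32, against -0.013 over all promoters.

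In HHC against CCC, 26 members were tested among 12463 promoters and 0 were called (smallest limma adjusted p = 0.964, with 2 at an unadjusted p under 0.05). Of all promoters 0.00% were called and 3.99% had an unadjusted p under 0.05. Hoxa6 read 16.02 and 16.43 in CCC and 13.53, 15.17 and 13.53 in HHC, a log2 difference of -2.15 (SE 0.53, limma adjusted p = 0.964). It was the 1 member at the unadjusted threshold, beside 0.546% of all promoters. Hoxa5 read 16.02 and 16.43 in CCC and 15.01, 15.51 and 15.59 in HHC (log2 difference -0.85, SE 0.29, limma adjusted p = 0.964). Hoxb3, which acts in hindbrain and thyroid development, read 15.07 and 15.29 in CCC and 13.53, 14.97 and 13.53 in HHC (log2 difference -1.17, SE 0.53, limma adjusted p = 0.964), values that depend on the floor, as those of Hoxa6 do, with 2 of 3 HHC libraries there. Libraries did not overlap for 7 members lower (Hoxa2, Hoxa4, Hoxa5, Hoxa6, Hoxb3, Hoxc4 and Hoxc10, background 11%) and 1 higher in HHC (Hoxd4, background 8.67%). The median over the members was -0.31, against -0.015 over all promoters.

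**Figure D5:**
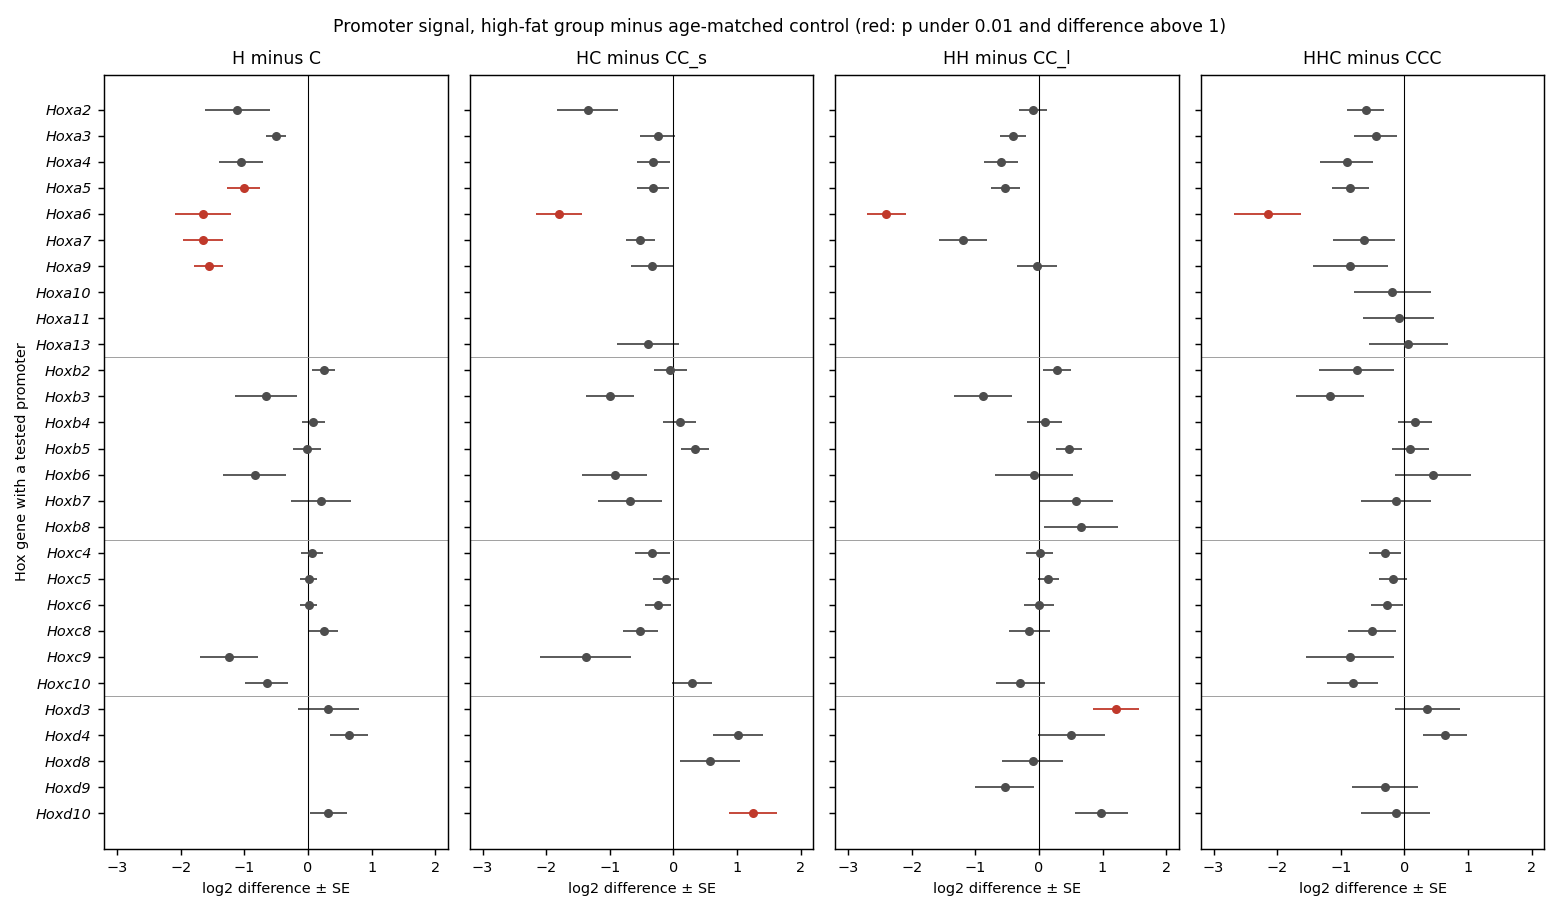
Log2 difference in promoter signal, high-fat group minus age-matched control, with its SE, for each tested Hox gene (vertical axis) in the 4 pairs; red points have an unadjusted p under 0.01 and an absolute difference above 1. Hoxa6 is red in each panel, at -1.65, -1.80, -2.40 and -2.15.

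The pairs of H with C and of HC with CC_s share no library, nor do the pairs of the 25-week arm. Whether the diet difference itself differed between arms was tested with an interaction term. For obesity, (H minus C) minus (HH minus CC_l), 26 members were tested and 1 reached the unadjusted threshold, beside 0.473% of 13118 promoters. It was Hoxa9, with -1.53 (SE 0.38, limma adjusted p = 0.985), which was -1.56 at 12 weeks and -0.03 at 25 weeks. CC_l was already low for Hoxa9, at 14.49 and 14.90, and HH read 14.99, 14.32 and 14.70. Without CC_l 1 the number was 0. For weight loss 0 of 27 members reached that threshold by limma, beside 0.216% of all promoters, with 1 at an unadjusted p under 0.05, beside 2.3%.

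Controls of different age were compared as background. CC_s against C gave 0 members at the unadjusted threshold, where 0.326% of all promoters reached it, and 0 at an unadjusted p under 0.05 in limma, where 5.04% of all promoters were. CCC against CC_l gave 1, Hoxc9, beside 0.688% of all promoters. Hoxc9, a posterior thoracic member, was at the floor in both CC_l libraries and had a mean of 15.66 in CCC, a log2 difference of 2.13 (SE 0.38, limma adjusted p = 0.643) that depends on the floor. It entered the test only through CCC. Hoxa9 also read higher in CCC, by 0.99 (SE 0.25, limma adjusted p = 0.714). Both are named after their values were seen.

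In CCC against CC_l, 20 of 24 tested members read higher in CCC, with a median difference of 0.29 against -0.008 over all promoters. Libraries did not overlap for 7 members higher (Hoxa2, Hoxa4, Hoxa9, Hoxb7, Hoxc4, Hoxc9 and Hoxc10, background 19.2%) and 1 lower in CCC (Hoxd8, background 20.5%). In CC_s against C the median was 0.12 against -0.005, with 2 members not overlapping and higher in CC_s (Hoxa2 and Hoxb4, background 5.39%) and 0 lower (background 5.79%). Peaks covered 39.1% and 50.7% of Hoxc in CC_l and 63.2% and 57.3% in CCC, without overlap (exact permutation p = 0.333, the smallest that 2 against 2 libraries can give). CCC is also the control of HHC, and CC_l that of HH, so these comparisons share libraries with the diet pairs.

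By exact permutation p, the number of Hox promoters with any peak gave a weaker contrast than the covered share of Hoxa or Hoxb, though not of Hoxd. It was 26, 29 and 25 in C and 20, 18 and 21 in H, 22, 30 and 28 in CC_s and 27, 27 and 24 in HC, 22 and 29 in CC_l and 26, 27 and 21 in HH, and 26 and 29 in CCC and 17, 31 and 21 in HHC. Only H and C did not overlap (difference -7.0, exact permutation p = 0.1). The pooled differences were -3.92 in obesity (exact permutation p = 0.105) and -2.58 after weight loss (exact permutation p = 0.41). In obesity the value was -5.67 without CC_l 1 (exact permutation p = 0.025) and -2.17 without CC_l 2 (exact permutation p = 0.475). After weight loss it was -4.58 without HHC 2 (exact permutation p = 0.1333), -1.08 without HHC 1 (exact permutation p = 0.75) and -0.75 without HC 3, HHC 3 and CC_s 2 (exact permutation p = 0.8889). In the same libraries of C and H, 12678 to 13133 and 12223 to 12280 of all coding promoters had a peak, and 16 to 19 and 11 to 14 of the 50 other homeobox promoters. In HH and CC_l 11998 to 12756 and 12870 to 13057 of all coding promoters had one, also without overlap. The median peak was 6.82 to 8.92 times as high as the lowest one in C and 4.70 to 6.40 times in H. It was 7.30 to 7.42 times in CC_s and 2.43 to 6.50 in HC, while in this ratio the groups of the 25-week arm overlapped. The part of these library differences in the Hox results was not tested.

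Peak regions merged over all libraries were tested in the same way, with 9 regions inside the clusters in H against C. The region over Hoxa (chr6:52154722-52260366) was called, where 8.28% of 30840 regions were, with a log2 difference of -1.27 (SE 0.19, limma adjusted p = 0.00845). The call was lost without C 2 (-1.23, limma adjusted p = 0.066). The Hoxb region chr11:96289477-96355773 was lower by 0.58 (log2 difference -0.58, SE 0.13, limma adjusted p = 0.0242), under the difference of 1 asked for. Without H 1, C 2, H 2, C 3 or H 3 its limma adjusted p was 0.058 to 0.11, and with the maximum signal its difference was -0.10 (limma adjusted p = 0.789). In HH against CC_l, the Hoxd region chr2:74731109-74742845, around Hoxd3, was higher by 1.81 (SE 0.48, limma adjusted p = 0.207), and the Hoxa region differed by -0.85 (SE 0.26, limma adjusted p = 0.24). In HC against CC_s, the Hoxd region chr2:74685141-74718544, from Hoxd10 to Hoxd8, was higher by 0.80 (SE 0.21, limma adjusted p = 0.196), and the Hoxa region differed by -0.49 (SE 0.18, limma adjusted p = 0.34). In HHC against CCC, the Hoxb region differed by -0.62 (SE 0.20, limma adjusted p = 0.753) and the Hoxc region chr15:102960060-103043387 by -0.44 (SE 0.22, limma adjusted p = 0.805). Outside H against C no tested region, inside or outside the clusters, was called by limma in the main fit. This was 0.00% of 33619 in HH against CC_l, 0.00% of 29699 in HC against CC_s and 0.00% of 32736 in HHC against CCC. In these fits 4604, 3563 and 2011 regions had an unadjusted limma p under 0.05. With 1 library left out, the regions called numbered 29 higher and 53 lower in HC against CC_s without HC 3, 31 and 249 in HH against CC_l without CC_l 1, and 57 and 355 without CC_l 2. In HHC against CCC they were 3 and 113 without CCC 1. Of these none was a Hox region, though without CC_l 1 there were 2 Hox regions under an adjusted p of 0.05 with a log2 difference under 1 in size (smallest limma adjusted p = 0.0219). The absence of a call in the main fit is thus no result about the Hox regions.

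Genes that work with Hox proteins or act on their chromatin were read from the same fit. The TALE cofactors, PBX and MEIS proteins that bind DNA with Hox proteins, had 7 tested promoters in H against C and a median log2 difference of 0.01. The polycomb subunits, which keep silent Hox genes closed, had 20 tested and a median of -0.08, and the trithorax subunits, which keep active ones open, 14 tested and -0.11. The other developmental homeobox genes had 7 tested and -0.16. In each of these lists 0 genes were called in any of the 4 pairs by limma. At the unadjusted threshold in H against C there were 0 in the first 3 lists and 1 among the other homeobox genes. Among the genes that flank the clusters, 10 were tested in H against C with a median of -0.31, and 1 reached the unadjusted threshold, Mtx2 beside Hoxd (log2 difference -1.29, limma adjusted p = 0.0988), which is named after its value was seen. All 3 H libraries of Mtx2 stood at the floor, so it was tested only through C and its difference depends on the floor. Of the marker lists, 1 gene was called, the macrophage receptor gene Cd14, which was lower in H (log2 difference -1.68, limma adjusted p = 0.0165). It was 1 of 2 macrophage promoters tested, and the other read higher in H. Of the macrophage markers 2 to 4 of 10 had a promoter peak in C and 3 to 5 in H, and the part of such cells in the Hox results was not tested.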

How the data were processed

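Per the labels and the study's methods, the authors trimmed reads with Trim Galore 0.6.6, aligned them with Bowtie2 2.4.4 to GRCm38, sorted them with SAMtools 1.13, made coverage with bedtools 2.30 and called peaks per library with SEACR 1.3 (stringent, threshold 0.01). The deposited values are the coverage signal summed over a peak and its highest signal, with no normalization between libraries, and hold neither read depth nor weaker regions. Counting intervals could not be given. The methods say that peaks in blacklisted regions were removed. Whether the deposited lists are from before or after that step is not given in the sources used here.

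A promoter's value was the summed signal of its peaks times the share of each peak inside the window, which spreads signal evenly over a long peak, then rank-mapped. limma 3.58.1 (R 4.3.3, trend) was fitted on each pair of groups over all promoters whose signal exceeded the floor in at least n libraries, n being the size of the smaller group, with Benjamini-Hochberg adjustment. The same was done for 104657 merged regions. Values per library were compared by exact permutation with numpy 2.4.6, labels being permuted within arms. Scripts were tested on simulated data. Values in every library are given for the member of highest mean signal per cluster and the 3 members of smallest p per pair, and regions for the 2 of smallest p per pair. The members and lists were chosen with earlier results of these data known.

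Same-numbered libraries did not deviate together in the 4 age-matched pairs (lowest correlation -0.203, highest 0.097), so the numbers were not used as pairs. In CC_s and C all correlations were above 0.1 (0.345, 0.107 and 0.114). No Hox member was called there with or without the block, so there was no call to lose. P-values refer to differences between libraries, each a separate animal. Those of limma draw their variance partly from all promoters, and depend on the floor where libraries stand there. All 22 columns of signal were matched to samples. Alternatives varied the promoter value, window, starts, peak lists, scaling, filter, pairing and libraries.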

Additional observations from a re-analysis of the deposited data

How the results depend on the processing

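The covered share of Hoxa in obesity kept its direction in every alternative, with -42.7 to -32.2 points when 1 library was left out and -37.9 with a replicate block, where p = 0.0625 in an exact sign-flip permutation test is the smallest that 5 differences allow. The replicate numbers do not pair these libraries. For Hoxa after weight loss the difference was -3.21 as a multiple of the genome's covered share, -171 ppm of signal, -20.9 kb for the longest peak and -32.0 points at equal covered length, each with an exact permutation p under 0.05. It was -34.6 points with the 30000 strongest peaks (exact permutation p = 0.06), -28.5 with 10000 bp added on each side (p = 0.055) and -29.8 with the replicate block (p = 0.1875), and -40.0 to -26.1 with 1 library left out. For Hoxb in obesity the values were -0.92 (genome multiple), -37.3 (signal), -7.45 (equal length) and -9.09 (replicate block), with -13.8 to -5.70 leaving out 1 library. For Hoxb after weight loss they were -13.6 kb (longest peak), -9.97 (equal length), -14.1 (replicate block), -10.2 without HC 3, HHC 3 and CC_s 2 and -64.1 in signal without them, with -19.0 to -12.6 leaving out 1. Apart from those with 1 library left out, these had an exact permutation p above 0.05. The other measures of Hoxb kept one under 0.05, which were -7.29 kb (longest peak), -9.41 (strongest peaks) and -8.72 (10000 bp added) in obesity, and -1.42 (genome multiple), -82.9 ppm, -13.8 (strongest peaks) and -13.7 (10000 bp added) after weight loss.

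Hoxc in obesity turned to 0.18 as a genome multiple and ran from -5.75 to 0.07 with 1 library left out, and Hoxc after weight loss was -132 ppm of signal. Hoxd in obesity turned to 0.10 (genome multiple), 2.99 (strongest peaks), 20.1 (signal) and 6.49 (equal length), with -7.77 to 4.19 leaving out 1. Hoxd after weight loss was 8.92 at equal length and -0.86 to 8.30 leaving out 1. The number of Hox promoters with a peak ran from -5.67 to -2.17 in obesity and from -4.58 to -1.08 after weight loss leaving out 1. Longest peak, equal length and the joint omission of 3 libraries were chosen after seeing the data.

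In H against C the number of members called was 2 with the whole peak signal, with the 30000 strongest peaks, with median centring and with all libraries of an arm in 1 fit, 0 with the covered percent and with the replicate block, and 0 to 1 leaving out 1 library. Coding genes called were 54 in the main analysis, 214 with the whole signal, 146 with the maximum, 103 with all starts, 90 with no filter, 1 with the replicate block and 1 to 27 leaving out 1. At the unadjusted threshold the number of members was 0 (covered percent), 7 (all starts) and 2 to 4 leaving out 1. In HC against CC_s it was 0 with the maximum and 1 to 6 leaving out 1. In HH against CC_l it was 0 with the maximum, 1 with the 1000 bp window, the strongest peaks and median centring, and 1 to 2 leaving out 1. In HHC against CCC it was 2 (whole signal), 3 (maximum), 0 (covered percent), 0 (1000 bp window), 2 (strongest peaks), 4 (replicate block) and 0 to 2 leaving out 1. Hoxa6 there had -1.88 with the replicate block (limma adjusted p = 0.00189). With the block only replicates 1 and 2 are compared, since CCC has no replicate 3, and HHC 1 stands at the floor. The numbers do not pair these libraries, and the main fit gave a limma adjusted p of 0.964. Regions called in H against C ran from 0 to 1, and members in the interactions from 0 to 1 in both contrasts, with 1 for weight loss without CCC 2. The Hoxb region in HHC against CCC turned to 0.16 with the maximum signal. The cause of these shifts was not tested, and read depth cannot be judged from peak lists.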
